A study of Mus musculus with 12 samples.

Results

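The circadian clock genes described here are Arntl, Npas2, Per1, Per2, Per3, Cry1, Nr1d1, Nr1d2, Dbp and Tef. They were taken by symbol from a table of read counts over 18227 genes, and all 10 were found. The counts come from polyA RNA sequencing of hepatocyte preparations from the livers of wild-type male BALB/C mice, 8 weeks old. Every mouse lost 70% of its liver by surgery, and cells were taken on post-operative day 1 (POD1) or 2 (POD2) by collagenase perfusion, filtering and low-speed spins, with no sort. Every mouse also received an antibody into the peritoneum, 200 µg in 100 µl per injection, with the second dose 2 days after the first and at the time of surgery. The anti-Gr1 groups received an antibody against the granulocyte antigen Gr1, given to deplete granulocytic myeloid-derived suppressor cells. The isotype groups received a matched antibody without that target. The 4 groups, anti-Gr1 POD1, isotype POD1, anti-Gr1 POD2 and isotype POD2, held 3 libraries each. Livers without surgery were not analysed here, so each group carries the hepatectomy and an antibody. The labels give the day of harvest but no hour, so hour of harvest and group cannot be told apart.

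The mammalian clock is a loop of transcription factors that feeds back on itself over about a day. ARNTL (also called BMAL1) pairs with CLOCK or with its paralogue NPAS2 and activates genes through E-box elements, among them the Per, Cry, Nr1d and Dbp genes. PER and CRY proteins then inhibit that pair. NR1D1 and NR1D2, the REV-ERB nuclear receptors, repress Arntl, Npas2 and Cry1 through ROR elements. DBP and TEF are bZIP factors that act through D-box elements, with Per3 among their targets. In mouse liver, Arntl and Npas2 RNA peak at the opposite time of day from Nr1d1 and Dbp RNA.

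The 12 libraries held 13189392 to 15822043 counts each. Separate animals within a group are not stated in the labels, and p-values here therefore reflect the spread among libraries, which could be technical. Some libraries were nearly the same. With 1 as the value for counting noise alone, the chi-square per gene was 5.7 between replicates 1 and 2 of anti-Gr1 POD2 and 1.68 between replicates 1 and 2 of isotype POD2. Each of these pairs was summed and counted as 1 sample, giving n = 3 per group on POD1 and n = 2 on POD2. A further pair joins different days. Replicate 3 of anti-Gr1 POD2 and replicate 3 of anti-Gr1 POD1 gave 3.73, against 63.8 or more for the other 63 of 66 pairs, and results are given with and without this cross-day pair. The antigen gene Ly6g went against the labelled depletion: its level was 24.2 to 55.0 CPM in anti-Gr1-labelled POD1 libraries, against 0.970 to 1.97 CPM in isotype POD1. It was 25.4 to 51.6 CPM in anti-Gr1-labelled POD2 libraries, against 0.247 to 0.791 CPM in isotype POD2. Anti-Gr1 therefore means no more than a library labelled so, here and in every direction given. Hepatocyte markers such as Alb were present in all 12 libraries, but their summed level was 3080 and 4113 CPM in replicates 1 and 2 of anti-Gr1 POD1, 36410 in replicate 3 of that group, 8596 to 14220 in isotype POD1, 29350 to 35870 in anti-Gr1 POD2 and 134500 to 136400 in isotype POD2. Markers of pancreatic acinar cells ranged from 72.7 to 371300 CPM over the 12 libraries and did not follow the groups.

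RefSeq promoter windows on GRCm38.p6, from 250 bases before a transcript start to 50 after it, were found for 9 of the 10 genes, all but Per2, as 12 windows. The 4 windows printed here each hold an element through which the loop acts. Capitals mark the match, and each window is written 5′ to 3′ on the strand of the gene. The motifs were searched on both strands as CACGTG for the E-box, TTANNTAA for the D-box and, for the ROR element, AANT followed directly by NGGTCA. Arntl lies on the plus strand of chromosome 7, Per1 on the plus strand of chromosome 11, Cry1 on the minus strand of chromosome 10 and Per3 on the minus strand of chromosome 4.
Arntl, chr7:113207261-113207560: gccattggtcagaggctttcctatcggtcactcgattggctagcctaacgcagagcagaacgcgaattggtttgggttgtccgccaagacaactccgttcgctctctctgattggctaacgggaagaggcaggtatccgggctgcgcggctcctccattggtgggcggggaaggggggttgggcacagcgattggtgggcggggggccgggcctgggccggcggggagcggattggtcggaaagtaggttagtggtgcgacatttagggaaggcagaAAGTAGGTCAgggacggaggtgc
Per1, chr11:69098699-69098998: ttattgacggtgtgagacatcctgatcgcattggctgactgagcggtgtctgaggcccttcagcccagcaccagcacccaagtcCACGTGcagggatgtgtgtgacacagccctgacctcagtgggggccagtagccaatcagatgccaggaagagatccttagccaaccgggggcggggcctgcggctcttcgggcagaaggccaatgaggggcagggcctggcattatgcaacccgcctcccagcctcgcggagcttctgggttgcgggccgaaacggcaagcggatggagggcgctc
Cry1, chr10:85185005-85185304: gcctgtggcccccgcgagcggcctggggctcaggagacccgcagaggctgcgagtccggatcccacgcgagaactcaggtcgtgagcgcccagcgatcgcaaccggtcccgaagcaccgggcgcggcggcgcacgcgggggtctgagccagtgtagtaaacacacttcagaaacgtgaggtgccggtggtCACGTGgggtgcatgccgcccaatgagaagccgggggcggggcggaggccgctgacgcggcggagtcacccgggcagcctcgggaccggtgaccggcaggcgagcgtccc
Per3, chr4:151044616-151044915: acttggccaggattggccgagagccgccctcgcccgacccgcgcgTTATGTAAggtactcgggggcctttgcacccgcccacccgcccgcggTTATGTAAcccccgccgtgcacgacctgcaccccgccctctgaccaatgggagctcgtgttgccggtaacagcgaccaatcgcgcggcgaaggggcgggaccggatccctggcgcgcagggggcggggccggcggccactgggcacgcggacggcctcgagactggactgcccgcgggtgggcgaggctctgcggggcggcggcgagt

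Counted from the transcript start, the E-box of Per1 began at -166 and that of Cry1 at -60. Per3 held the same D-box letters at -205 and at -158, and the ROR element of Arntl began at 27. Tef held an E-box in both of its windows, at -127 and -138. Its first window also held TTAGATAA at -174, which matched the D-box letters only because their middle bases were left free. An E-box was present in 7.15% of all 32851 windows of the same length, a D-box in 6% and a ROR element in 0.606%. The windows of Npas2, Nr1d1, Nr1d2 and Dbp held no match to these letters. A match is a description of the letters and not a measured binding site.

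Expression levels are given as CPM, the count of a gene relative to the library size after TMM scaling, which lines libraries up on the genes that differ least. Per kilobase of exon, Per1 had the highest mean level of the 10 genes in anti-Gr1 POD1 and anti-Gr1 POD2, at 12.2 and 11.9 CPM per kb, while Nr1d1 was highest in isotype POD1 and isotype POD2, at 18.5 and 12.6 CPM per kb. In anti-Gr1 POD1, all 3 Per1 values per kb lay above the range of Nr1d1, and in isotype POD1 the 3 Nr1d1 values, 15.6 to 22.2, overlapped those of Dbp, 7.42 to 17.6. In anti-Gr1 POD2, Per1, Nr1d1, Dbp and Tef lay between 9.86 and 14.3 CPM per kb at their highest, and the ranges of Per1, Nr1d1 and Dbp overlapped. In isotype POD2, Nr1d1 stood above Dbp and Tef, whose ranges overlapped. Arntl and Per2, in the lower part of the order in every group, lay between 1.8 and 3.39 CPM per kb on average. Npas2 and Per3 were the lowest pair in all 4 groups, at 0.323 and 0.449 CPM per kb in anti-Gr1 POD1 and at 1.16 and 0.442 in isotype POD1. At POD2, Npas2 and Per3 stood at 0.38 and 1.16 CPM per kb in anti-Gr1 and at 0.285 and 1.19 in isotype. The plot of levels by library shows how far the members differ between groups and how close replicate 3 of anti-Gr1 POD2 lies to replicate 3 of anti-Gr1 POD1.

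**Figure D1:**
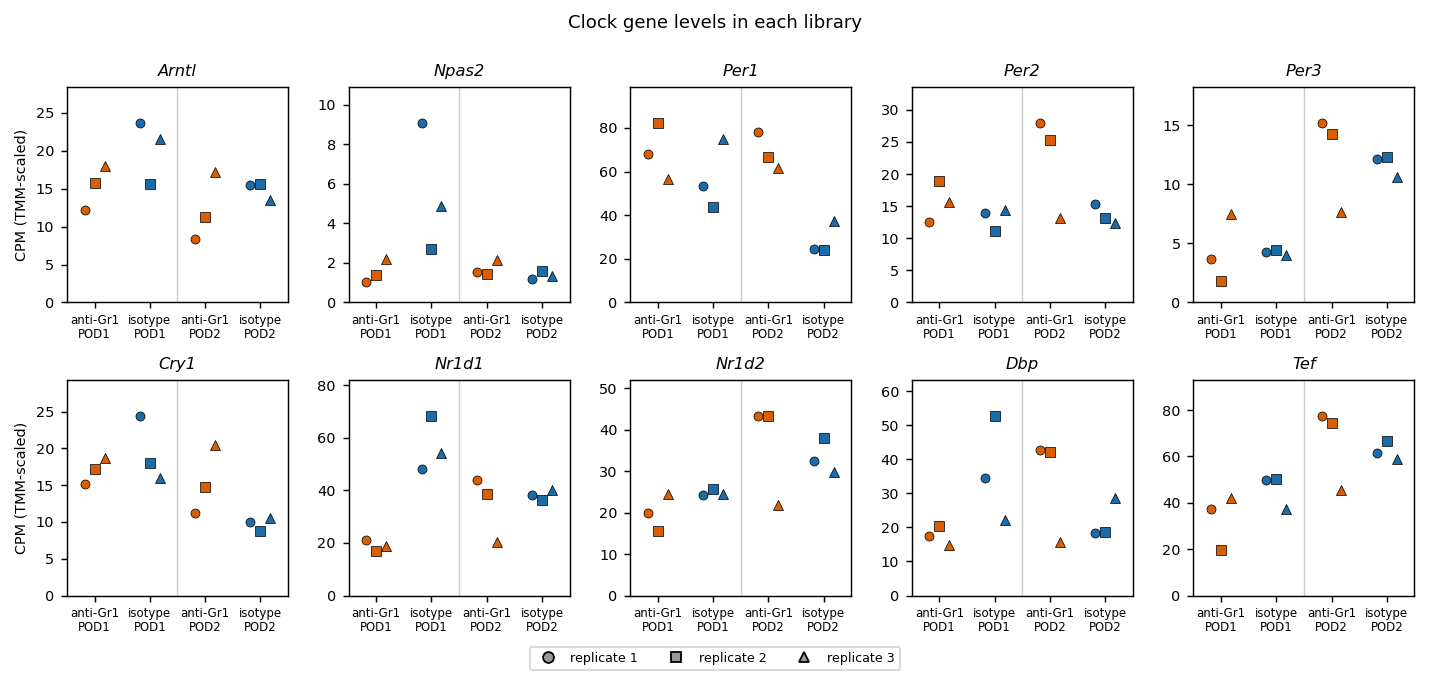
TMM-scaled CPM of the 10 clock genes in each of the 12 libraries, by group (x axis), with a linear y axis from 0 that differs between genes and a marker shape for each replicate number. Nr1d1 lies between 16.9 and 21.2 CPM in anti-Gr1 POD1 and between 48 and 68.4 CPM in isotype POD1, while replicate 3 of anti-Gr1 POD2 stands apart from replicates 1 and 2 in Per3, Nr1d2 and Tef.

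On POD1, Nr1d1 was the clock gene that differed between libraries labelled anti-Gr1 and isotype. Nr1d1, whose product represses Arntl, stood at 21.2, 16.9 and 18.9 CPM in replicates 1 to 3 of anti-Gr1, against 48.0, 68.4 and 54.2 CPM in isotype. The groups did not overlap, and the lowest isotype library was above the highest anti-Gr1 library by more than the whole range of either group. The means were 19.0 ± 2.16 CPM in anti-Gr1 and 56.9 ± 10.4 CPM in isotype (SD, n = 3 each). The log2 fold change was -1.57 ± 0.25 (SE), a level 2.98-fold lower in anti-Gr1, with adjusted p = 0.0365 by edgeR's quasi-likelihood test over 15647 genes. Of the 10 members, 1 passed the threshold of 0.05, where 0.735% of all genes tested passed. Without the cross-day pair, which leaves 2 libraries in anti-Gr1 POD1, the value was -1.58 ± 0.22 with adjusted p = 0.0138, and Nr1d1 was again the 1 member that passed, against 4.87% of all genes. The call was lost without replicate 1 or 2 of anti-Gr1 POD1, at adjusted p = 0.069 and 0.0966, and without replicate 1, 2 or 3 of isotype POD1, at 0.102, 0.137 and 0.125, with log2 fold changes between -1.69 and -1.43.

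Nr1d1 overlaps Thra, which encodes thyroid hormone receptor alpha on the opposite strand, and no source used here gives the strand setting of the counting, so reads in the shared stretch cannot be told apart. Thra had a log2 fold change of -0.44 ± 0.19 on POD1, with adjusted p = 0.298. The paralogue Nr1d2 was at 19.8, 15.5 and 24.4 CPM in anti-Gr1, against 24.1, 25.8 and 24.5 CPM in isotype. Its groups overlapped through replicate 3 of anti-Gr1, and its log2 fold change of -0.31 ± 0.26 had adjusted p = 0.581.

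Dbp and Npas2 were also separated by antibody on POD1, but neither passed by edgeR in the fit of 10 units, while Npas2 passed by DESeq2. Dbp, the D-box activator, was at 17.5, 20.5 and 14.7 CPM in anti-Gr1, against 34.5, 52.8 and 22.2 CPM in isotype. The isotype values spread more than 2-fold among themselves, and the log2 fold change was -1.04 ± 0.41 with adjusted p = 0.264. Dbp overlaps Sphk2 on the opposite strand, and Sphk2 stood at 0.19 ± 0.13 with adjusted p = 0.507. Npas2, the partner of ARNTL that can stand in for CLOCK, was at 1.06, 1.40 and 2.19 CPM in anti-Gr1, against 9.10, 2.70 and 4.90 CPM in isotype. Isotype replicate 1 alone held the top of that range, and the log2 fold change was -1.84 ± 0.48 with adjusted p = 0.123 by edgeR, and -1.82 ± 0.51 with adjusted p = 0.0158 by DESeq2. It passed by edgeR too with all 12 libraries as labelled, at adjusted p = 0.0434, and without replicate 3 of anti-Gr1, at 0.0421. Leaving out the whole cross-day pair, it passed with the other libraries as labelled, at 0.0162. These 3 fits called 528, 1361 and 2301 genes for the antibody on POD1, in the order given, against 115 in the main fit. DESeq2 called 750 genes there. Groups that did not overlap, lower in anti-Gr1, were found for 3 of 10 members, where 10% of all genes tested met the same condition. Npas2 rests on 11 to 169 reads per library, the fewest of the members.

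The other 6 members overlapped between the antibodies on POD1, with adjusted p between 0.466 and 0.980. Arntl itself, the activator that NR1D1 represses, was at 12.2, 15.7 and 18 CPM in anti-Gr1, against 23.7, 15.6 and 21.6 CPM in isotype, a log2 fold change of -0.40 ± 0.26. The largest of their differences was in Tef, at 37.2, 19.5 and 42.2 CPM in anti-Gr1, against 49.9, 50.3 and 37.2 CPM in isotype, with a log2 fold change of -0.46 ± 0.31. Per3 was spread in anti-Gr1, at 3.67, 1.81 and 7.45 CPM, and tight in isotype, at 4.31, 4.42 and 4.0 CPM. Its fitted difference of 0.035 ± 0.47 on the log2 scale turned to -0.64 ± 0.32 without the cross-day pair. Per1, Per2 and Cry1 had log2 fold changes of 0.26 ± 0.24, 0.26 ± 0.27 and -0.19 ± 0.22. Over the 10 members the median log2 fold change was -0.36, beside 0.0062 over all genes tested.

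Markers of other cells moved with the antibody on POD1. The 10 neutrophil markers summed to 4939 to 8657 CPM in anti-Gr1, against 623 to 777 CPM in isotype, and 8 of them passed as higher. The 5 B and plasma cell markers summed to 18.4 to 34.5 CPM in anti-Gr1, against 87.1 to 204 CPM in isotype, and none of the 5 passed. The 5 erythroid markers summed to 199.7 to 357 CPM in anti-Gr1, against 1366 to 13350 CPM in isotype, with none passing. The 10 hepatocyte markers, at 3080 to 36410 CPM in anti-Gr1 and 8596 to 14220 CPM in isotype, had none passing, but in the fit without the cross-day pair 5 of them, Hnf4a, Cps1, Alb, Cyp3a11 and Serpina1a, passed as lower, with a list median of -1.81. No marker in these lists was at 0 in any library. Their part in the level of Nr1d1 was not tested. In bulk RNA, fewer cells of a type and less RNA per cell cannot be told apart.

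**Figure D2:**
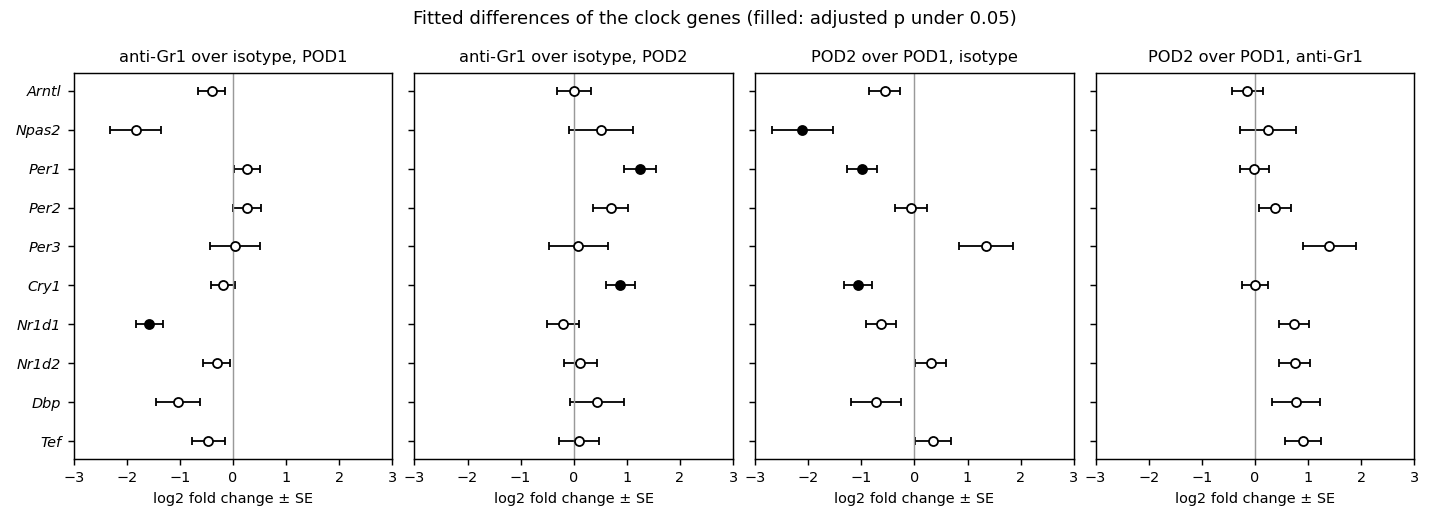
Fitted log2 fold changes (x axis) of the 10 clock genes (rows) with SE bars in 4 comparisons, filled where the adjusted p is under 0.05 (edgeR). Nr1d1 is filled for the antibody on POD1, Per1 and Cry1 for the antibody on POD2, Npas2, Per1 and Cry1 for the day in isotype, and no gene for the day in anti-Gr1.

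A ratio of counts inside a library does not depend on the scaling of libraries. Nr1d1 over Arntl was 1.74, 1.08 and 1.05 in anti-Gr1 POD1, against 2.02, 4.40 and 2.51 in isotype POD1, with no overlap. On POD2 the ratio was 5.24, 3.42 and 1.19 in anti-Gr1, against 2.48, 2.33 and 2.96 in isotype. Replicates 1 and 2 of anti-Gr1 POD2 had higher ratios than every isotype POD2 library, and replicate 3, of the cross-day pair, had a lower ratio than all of them. Dbp over Arntl was 1.44, 1.31 and 0.819 in anti-Gr1 POD1, against 1.46, 3.39 and 1.03 in isotype POD1. On POD2 it was 5.10, 3.74 and 0.908 in anti-Gr1, against 1.18, 1.20 and 2.11 in isotype. The Dbp ratio overlapped between the antibodies on both days.

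**Figure D3:**
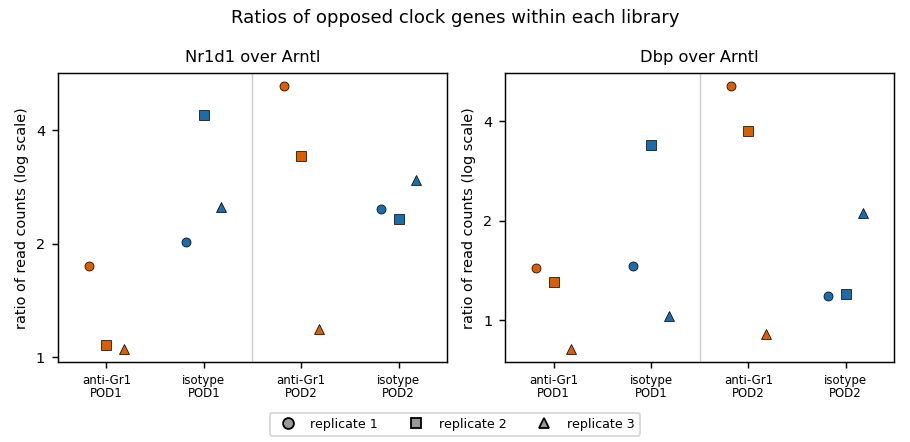
Ratio of read counts of Nr1d1 over Arntl (left) and of Dbp over Arntl (right) in each library (log y axis), by group, with a marker shape for each replicate number. The Nr1d1 ratio is 1.05 to 1.74 in anti-Gr1 POD1 and 2.02 or more in isotype POD1, and in anti-Gr1 POD2 it is 5.24 and 3.42 in replicates 1 and 2 but 1.19 in replicate 3.

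On POD2, Per1 and Cry1 were higher in libraries labelled anti-Gr1. Per1, an inhibitor of the ARNTL pair and an acutely inducible gene, was at 78.1, 66.5 and 61.4 CPM in anti-Gr1, against 24.5, 24.2 and 37.1 CPM in isotype. No anti-Gr1 value fell within the isotype range, and the means were 66.9 ± 7.71 CPM in anti-Gr1 and 30.7 ± 9.04 CPM in isotype (SD, n = 2 each). The log2 fold change was 1.24 ± 0.31, 2.37-fold, with adjusted p = 0.0201 by edgeR. Cry1, the cryptochrome inhibitor, was at 11.2, 14.7 and 20.5 CPM in anti-Gr1, against 9.99, 8.79 and 10.5 CPM in isotype. The groups were set apart by less than 1 CPM, since replicate 1 of anti-Gr1 lay close above the highest isotype library. Its log2 fold change was 0.88 ± 0.28, with adjusted p = 0.048 by edgeR, and 0.061 by DESeq2.

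These were 2 of 10 members, against 25.3% of all genes tested, a share near the background. Groups that did not overlap, higher in anti-Gr1, were likewise 2 of 10 members, where 30.3% of all genes met that condition. Without the cross-day pair, anti-Gr1 POD2 holds 1 summed unit, assumed to vary like the other groups. Then 0 of 10 members passed, against 10.1% of all genes. Per1 kept its size, at 1.24 ± 0.36 with adjusted p = 0.0689, while Cry1 stood at 0.40 ± 0.30 with adjusted p = 0.398. Each of the 4 units of POD2, left out in turn, ended the call of Per1, with adjusted p from 0.0544 to 0.107. The call of Cry1 held without replicates 1 and 2 of anti-Gr1, at 1.17, and was lost without replicate 3 of anti-Gr1, at 0.52, and without either isotype unit, at 0.80 and 0.95. With the alternatives for scaling other than none, and with no filter on low counts, Cry1 stood at adjusted p from 0.0507 to 0.0714.

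Per2 was at 28.0, 25.3 and 13.1 CPM in anti-Gr1, against 15.4, 13.2 and 12.3 CPM in isotype. Replicates 1 and 2 of anti-Gr1 were above all isotype libraries and replicate 3 was within their range. Its log2 fold change was 0.70 ± 0.33 with adjusted p = 0.155. Dbp was also high in replicates 1 and 2 of anti-Gr1, with replicate 3 below every isotype library, at 42.8, 42.2 and 15.7 CPM in anti-Gr1, against 18.3, 18.7 and 28.6 CPM in isotype. It had a log2 fold change of 0.44 ± 0.50 and adjusted p = 0.555 by edgeR. Pancreatic acinar markers summed to 101200, 108800 and 19780 CPM in replicates 1 to 3 of anti-Gr1, against 72990, 71810 and 371300 CPM in isotype. Their part in the level of Dbp was not tested. Nr1d1, at 44.0, 38.5 and 20.5 CPM in anti-Gr1 and 38.3, 36.3 and 40.1 CPM in isotype, had a log2 fold change of -0.20 ± 0.30. Its sign turned to 0.089 ± 0.27 without the cross-day pair. The remaining 5 genes had log2 fold changes between 0.012 for Arntl and 0.51 for Npas2, none passing. The median over the members was 0.28, beside 0.097 over all genes.

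Markers of other cells moved with the antibody on POD2 as well. The 10 hepatocyte markers summed to 29350 to 35870 CPM in anti-Gr1, against 134500 to 136400 CPM in isotype, and none of the 10 passed. The 5 Kupffer cell markers summed to 2634 to 4004 CPM in anti-Gr1, against 736 to 1117 CPM in isotype, and 4 passed as higher. All 5 markers of sinusoidal endothelium passed as higher, at 1827 to 2967 CPM in anti-Gr1, against 773.5 to 1012 CPM in isotype. All 10 neutrophil markers passed as higher, at 3053 to 4475 CPM in anti-Gr1, against 54.2 to 134 CPM in isotype. In the fit without the cross-day pair, 3 of 10 hepatocyte markers passed as lower, Alb, Cyp3a11 and Serpina1a, 1 of 5 Kupffer cell markers and all 10 neutrophil markers passed as higher, and no endothelial marker passed. The part of these cells in the levels of Per1 and Cry1 was not tested.

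**Figure D4:**
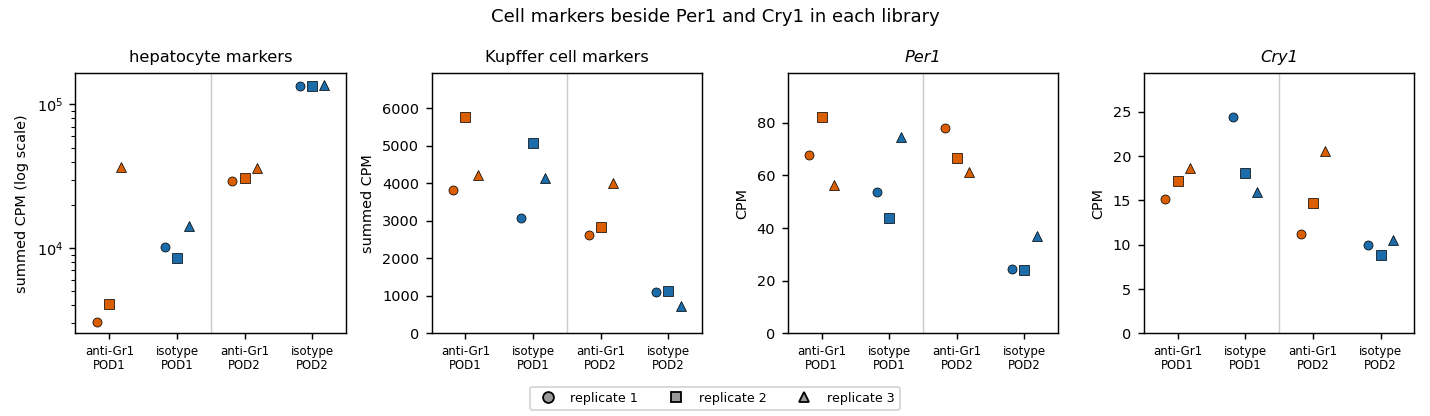
Summed CPM of 10 hepatocyte markers (log y axis) and 5 Kupffer cell markers beside the CPM of Per1 and Cry1 (linear y axes from 0) in each library, by group. In isotype POD2 the hepatocyte markers are at 134500 CPM or more while the Kupffer cell markers, Per1 and Cry1 are at their lowest group means.

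The antibody effect was compared between the days by an interaction. None of the 10 members passed by edgeR, against 5.6% of all genes tested. By DESeq2 1 member, Nr1d1, passed, where 1882 genes passed, against 877 in the main fit by edgeR. At an unadjusted p under 0.05 there were 4 members, Nr1d1, Npas2, Cry1 and Per1, where 24.7% of all genes reached that level. The antibody effect on Nr1d1 was -0.20 ± 0.30 on POD2 and -1.57 ± 0.25 on POD1, and the difference of 1.37 ± 0.39 had adjusted p = 0.0759. For Npas2 the difference was 2.35 ± 0.76 with adjusted p = 0.102. For Cry1 and Per1 it was 1.07 ± 0.35 and 0.98 ± 0.39, with adjusted p = 0.108 and 0.166. Without the cross-day pair the count was 0 as well, against 0.467% of all genes. Calls by edgeR appeared under other settings. Nr1d1 and Npas2 passed with all 12 libraries as labelled, at adjusted p = 0.0194 and 0.0386, where 2539 genes passed, against 877 in the main fit. Nr1d1 and Cry1 passed without scaling of libraries, at 0.0327 and 0.048, where 1271 genes passed. Nr1d1, Nr1d2 and Dbp passed once the cross-day pair was dropped and no libraries were summed, where 2030 genes passed. Fits with libraries as labelled count near-identical libraries separately, which can understate the spread.

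Between the days under the isotype antibody, Npas2, Cry1 and Per1 were lower on POD2. Npas2 was at 1.17, 1.58 and 1.36 CPM on POD2, against 9.10, 2.70 and 4.90 CPM on POD1. The POD2 values were all below the lowest POD1 value, and the log2 fold change was -2.11 ± 0.57 with adjusted p = 0.023 by edgeR. Cry1, at 9.99, 8.79 and 10.5 CPM on POD2 and 24.4, 18 and 16.0 CPM on POD1, had a log2 fold change of -1.06 ± 0.26 with adjusted p = 0.016. Per1, at 24.5, 24.2 and 37.1 CPM on POD2 and 53.5, 43.9 and 74.8 CPM on POD1, had -0.99 ± 0.28 with adjusted p = 0.0292. In both genes the POD2 libraries were below all POD1 libraries. These were 3 of 10 members, against 32.3% of all genes tested, again a share near the background.

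Per3, a D-box target with a pair of D-box matches in its window, stood higher on POD2 in isotype, without passing by edgeR in the fit of 10 units. It was at 12.2, 12.3 and 10.6 CPM on POD2, against 4.31, 4.42 and 4.0 CPM on POD1, a log2 fold change of 1.35 ± 0.51 with adjusted p = 0.0712 by edgeR. By DESeq2 it passed, at 1.40 ± 0.53 with adjusted p = 0.0307, where 5629 genes passed. The days were far apart relative to the spread of either group, and the gene passed without the cross-day pair, at 1.43 ± 0.30 with adjusted p = 0.00996. That fit called 4 of 10 members, against 33.4% of all genes. Per3 also passed by edgeR with the isotype groups alone and with all 12 libraries as labelled, at adjusted p = 0.00153 and 0.0154. Those fits called 6809 and 7096 genes, against 5059 in the main fit, and the fit of 12 libraries counts near-identical libraries separately. Per3 lies on the strand of Camta1, which it overlaps, and Camta1 fell by 0.84 on the log2 scale, with adjusted p = 0.0495.

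Groups that did not overlap between the days in isotype were found for 4 members lower on POD2, Npas2, Per1, Cry1 and Nr1d1, where 30.9% of all genes were lower in this way. They were found for 3 members higher on POD2, Per3, Nr1d2 and Tef, against 32.6% of all genes. Nr1d1 was at 38.3, 36.3 and 40.1 CPM on POD2, against 48.0, 68.4 and 54.2 CPM on POD1, with a log2 fold change of -0.64 ± 0.28 and adjusted p = 0.112. Nr1d2 and Tef had log2 fold changes of 0.31 ± 0.29 and 0.34 ± 0.34, which turned to -0.36 and -0.33 without scaling of libraries. Arntl, Dbp and Per2 overlapped between the days, at -0.56 ± 0.29, -0.72 ± 0.47 and -0.063 ± 0.30. The calls rest on few libraries. Npas2 and Cry1 lost theirs without replicate 1 of isotype POD1, at -1.47 and -0.78 with adjusted p = 0.0628 and 0.0557, and without either POD2 unit, with adjusted p from 0.0841 to 0.127. Per1 lost its call without replicate 1 or 3 of isotype POD1 and without either POD2 unit, at -0.67 to -1.32 with adjusted p from 0.0544 to 0.172. Cell markers moved along the same comparison. Hepatocyte markers summed to 134500 to 136400 CPM on POD2, against 8596 to 14220 CPM on POD1, and 5 of 10 passed as higher. Kupffer cell markers summed to 736 to 1117 CPM on POD2, against 3075 to 5078 CPM on POD1, and 4 of 5 passed as lower. All 5 endothelial markers passed as lower, at 773.5 to 1012 CPM on POD2, against 3006 to 3720 CPM on POD1, as did 8 of 10 neutrophil, 4 of 5 erythroid and 3 of 5 B and plasma cell markers. Their part was not tested.

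Between the days in libraries labelled anti-Gr1, none of the 10 members passed by edgeR, against 0% of all genes, and none passed by DESeq2. At an unadjusted p under 0.05 there were 4 members, Per3, Tef, Nr1d1 and Nr1d2, where 4.92% of all genes reached that level. Per3 was at 15.2, 14.2 and 7.63 CPM on POD2, against 3.67, 1.81 and 7.45 CPM on POD1. Tef, the other D-box factor of the list, was at 77.6, 74.4 and 45.3 CPM on POD2, against 37.2, 19.5 and 42.2 CPM on POD1. In both genes the days did not overlap, a condition met by 2 of 10 members with POD2 higher, against 6.83% of all genes. The gap in both lay between the near-identical replicates 3 of the cross-day pair. These stood at 7.63 CPM on POD2 against 7.45 on POD1 for Per3, and at 45.3 against 42.2 for Tef. Nr1d2 was at 43.3, 43.2 and 21.9 CPM on POD2, against 19.8, 15.5 and 24.4 CPM on POD1, and overlapped only through replicate 3 of each day. The log2 fold changes were 1.40 ± 0.50 for Per3, 0.91 ± 0.34 for Tef, 0.74 ± 0.29 for Nr1d2 and 0.73 ± 0.28 for Nr1d1, each with adjusted p = 0.720.

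These groups share the cross-day pair, whose POD1 library also held 36410 CPM of hepatocyte markers, against 3080 and 4113 in the other POD1 libraries, and the part of that difference was not tested. In the fit without the pair, 8 of 10 hepatocyte markers passed as higher on POD2, with a list median of 3.06. Without it, with 2 libraries on POD1 and 1 summed unit on POD2 that is assumed to vary like the other groups, Per3 and Nr1d2 passed as higher on POD2. They were 2 of 10 members, against 3.35% of all genes. Per3 reached 2.44 ± 0.39 with adjusted p = 0.0168 and Nr1d2 1.30 ± 0.23 with adjusted p = 0.0256. Tef, Nr1d1, Dbp and Per2 did not pass, with positive values of 1.43 ± 0.37, 1.12 ± 0.27, 1.16 ± 0.46 and 0.76 ± 0.30. Arntl and Cry1 stood at -0.49 ± 0.32 and -0.31 ± 0.30, and the median over the members was 0.94, beside -0.026 over all genes. Per3 was also the 1 member that passed, among 1149 genes, when replicate 3 of anti-Gr1 POD1 alone was left out. In that library Per3 was at 7.45 CPM, against 7.63 CPM in its counterpart on POD2.

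**Figure D5:**
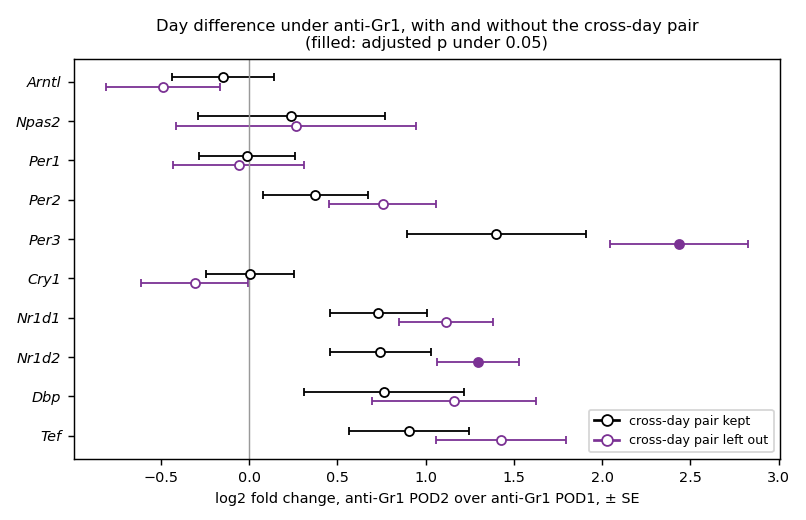
Log2 fold change of POD2 over POD1 under anti-Gr1 (x axis) with SE bars for the 10 clock genes (rows), with the cross-day pair kept (black) and left out (purple), filled where the adjusted p is under 0.05 (edgeR). Per3 stands at 1.40 with the pair kept and at 2.44 without it, and Per3 and Nr1d2 are filled only without it.

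Further genes of the clock were read from lists of textbook members. Of 10 other core clock genes, 9 were in the table and tested. None passed for the antibody on POD1, where the smallest p belonged to Hlf, the third factor of the DBP and TEF family. Hlf was at 8.90, 4.66 and 19.0 CPM in anti-Gr1, against 29.7, 18 and 29.2 CPM in isotype, a log2 fold change of -1.23 ± 0.46 with adjusted p = 0.242. Replicate 3 of anti-Gr1, of the cross-day pair, lay inside the isotype range. Without that pair Hlf and Rora, which activates Arntl through the ROR element, passed as lower, at -1.93 ± 0.34 and -1.01 ± 0.22 with adjusted p = 0.0278 and 0.0458. In the same fit 5 of 10 hepatocyte markers passed as lower too. Hlf and Rora were 2 of 9, where 4.87% of all genes passed in either direction. On POD2, 1 of 9 passed as higher, against 16.1% of all genes tested, Bhlhe41, a repressor that competes for E-boxes, at 4.31, 4.91 and 2.98 CPM in anti-Gr1, against 1.35, 2.20 and 1.36 CPM in isotype. Its log2 fold change was 1.38 ± 0.44 with adjusted p = 0.0498, and without the cross-day pair 1.53 ± 0.53 with adjusted p = 0.101. None of the 9 passed for the day in either antibody or for the interaction. Without the cross-day pair Rora and Cry2, the second cryptochrome, passed as higher on POD2 in isotype, at 1.01 ± 0.21 and 0.77 ± 0.25. These were 2 of 9, where 33.4% of all genes passed in either direction. Clock, the usual partner of ARNTL, had log2 fold changes of -0.16 ± 0.20 for the antibody on POD1, -0.11 ± 0.25 on POD2 and 0.071 ± 0.22 for the day in isotype.

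Of 9 kinases and ubiquitin ligase subunits that act on PER and CRY, none passed for the antibody on POD1. On POD2, 2 passed as higher, Csnk1e among them, and 1 as lower, 3 of 9 against 25.3% of all genes in either direction, near that background. Csnk1e, the casein kinase 1 epsilon that phosphorylates PER, was at 34.9, 30.5 and 31.3 CPM in anti-Gr1, against 20.6, 20.6 and 22.2 CPM in isotype, a log2 fold change of 0.70 ± 0.19 with adjusted p = 0.0307. Csnk2a1, a catalytic subunit of casein kinase 2, was the gene that passed as lower, at -0.52 ± 0.16. Without the cross-day pair none of the 9 passed on POD2. For the day in isotype, where 32.3% of all genes passed, 1 of 9 did, Csnk1e, lower on POD2 at -0.98 ± 0.18 with adjusted p = 0.0052, and it passed without the cross-day pair too. None passed for the day in anti-Gr1.

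Of 12 liver genes under clock control, none passed for the antibody on POD1. Elovl3, a fatty acid elongase gene, passed as lower without the cross-day pair, at -4.96 ± 0.72 with adjusted p = 0.0155, again beside 5 of 10 hepatocyte markers passing as lower. On POD2, 2 passed as higher, Nampt, the enzyme of NAD salvage, at 1.15 ± 0.31 and Coq10b, which acts with coenzyme Q, at 0.74 ± 0.21. The kinase gene Wee1, an E-box target that restrains entry into mitosis, passed as lower, and these 3 of 12 stand against 25.3% of all genes. Wee1 was at 15.6, 13.5 and 11.2 CPM in anti-Gr1 POD2, against 40.7, 43.4 and 34.6 CPM in isotype POD2, a log2 fold change of -1.46 ± 0.29 with adjusted p = 0.00932, and -1.40 ± 0.29 with adjusted p = 0.0295 without the cross-day pair. On POD1 it was at 8.05, 5.69 and 10.6 CPM in anti-Gr1, against 7.70, 7.54 and 7.04 CPM in isotype, and the groups overlapped. Between the days in isotype, 2 of the 12 passed as higher on POD2, Wee1 at 2.29 ± 0.26 and Por, the electron donor of cytochrome P450 enzymes, at 1.44 ± 0.32, and 1 as lower, Coq10b at -0.71 ± 0.20, 3 of 12 against 32.3% of all genes. With the cross-day pair left out, Cyp7a1, the rate-limiting enzyme of bile acid synthesis, passed as higher too, at 4.12 ± 1.05, in the fit in which 9 of 10 hepatocyte markers did. None passed for the day in anti-Gr1. The list medians were 0.048, 0.17, 0.37 and 0.73 for the antibody on POD1, the antibody on POD2, the day in isotype and the day in anti-Gr1. Over all genes the matching medians were 0.0062, 0.097, -0.056 and 0.0032.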

How the data were processed

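PolyA RNA of 12 hepatocyte preparations was sequenced. The authors deposited raw read counts per gene, and cutadapt, STAR, HTSeq, DESeq2 and the build GRCm38 are named in the submitters' processing notes. No source used here states versions or strand setting. All 12 columns were matched to samples by title, and 0 were left over. The table holds 18227 genes.

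Counts were tested with edgeR 4.0.16 (R 4.3.3, robust quasi-likelihood test, TMM scaling, filterByExpr, which kept 15647 genes, all 10 members among them) in 1 fit of 4 groups and 10 units, with Benjamini-Hochberg adjustment over all genes and a threshold of 0.05. SE was computed from each log2 fold change and its F. The procedure was tested on simulated data. The 5 comparisons were the antibody on each day, their interaction and the day in each antibody. The 10 alternatives include DESeq2 1.42.0, and each unit was left out in turn. Replicate numbers were not used to pair the samples in the main fit. Overlaps of genes come from GENCODE M21 and promoters from RefSeq. Named genes are the 10 members, list genes past the threshold or with up to the 4 smallest p, and the 5 genes most like Dbp and Arntl, of which some are not reported here. Clock, Thra, Sphk2, Camta1 and the list genes called without the cross-day pair were chosen after their values were seen. Members and lists were chosen with earlier results of these data known.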

Additional observations from a re-analysis of the deposited data

Results flagged for a closer look

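The antibody effect on Wee1 differed between the days by a test of the difference itself. Wee1 was 1 of 12 clock-controlled liver genes looked at, and none of the 10 members or of the other lists apart from cell markers passed. Of all genes tested, 5.6% passed. The effect on POD2 minus that on POD1 was -1.60 on the log2 scale (SE 0.37), with adjusted p = 0.0445 by edgeR. The effect was -1.46 ± 0.29 on POD2 and 0.14 ± 0.24 on POD1. The difference lay between -1.90 and -1.33 with each of the 10 units left out in turn, and 8 of the 10 ended the call: every isotype unit, both anti-Gr1 POD2 units and replicate 1 of anti-Gr1 POD1. Without the cross-day pair it was -1.29 ± 0.36 with adjusted p = 0.146.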

How the results depend on the processing

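With 1 alternative setting at a time, single-gene values gave 885 of 1114 results with the same direction and side of the threshold, 126 lost the call, 35 gained it and 68 changed sign. The counts below are genes passing, with members in parentheses where they moved. For the antibody on POD1 (115 genes, 1 member) they were 70 without scaling, 750 (2) by DESeq2, 52 with these groups alone, 528 (2) with 12 libraries as labelled, 793 without the cross-day pair, 2301 (2) without it and with the other libraries as labelled, 298 with a replicate block, and 21 to 1361 (0 to 2) with a unit left out. For the antibody on POD2 (3961, 2) they were 6404 with 12 libraries, 1650 (0) and 6338 (3: Per1, Per2 and Dbp) without the cross-day pair in its summed and labelled forms, 5980 (1) with the replicate block, and 806 to 2564 (0 to 1) with a unit left out. The members were 1 with DESeq2 size factors, without acinar genes in scaling, without the filter, by DESeq2 and with these groups alone. For the interaction (877, 0) they were 1271 (2) without scaling, 1882 (1) by DESeq2, 2539 (2) with 12 libraries, 76 and 2030 (3) without the cross-day pair, 2013 (1, Nr1d1) with the replicate block, and 0 to 2257 with a unit left out. For the day in isotype (5059, 3) they were 7638 (6) without the cross-day pair with other libraries as labelled, 7130 (6) without scaling, 5 members with these groups alone, 4 by DESeq2, with 12 libraries, without the cross-day pair with pairs summed and, with Per3 added, under the replicate block, and 1587 to 3552 (0 to 3) with a unit left out. For the day in anti-Gr1 (0, 0) they were 545 (2) and 2564 (5) without the cross-day pair, and 0 to 1149 (0 to 1) with a unit left out. The cause was not tested. Same-numbered libraries of different groups deviated from their group means together with r between -0.27 and 0.35, and 6 of 18 pairs were over 0.1. Differently numbered libraries had r between -0.48 and 0.45. The near-identical cross-day pair, both replicate 3, had r of only 0.24, so this measure cannot decide whether the replicate numbers pair the samples.

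Without scaling, the median of all genes moved to -0.14, 0.51, 0.66, -0.73 and -0.11 in the 5 comparisons in the order above, and member values are best read against it. Higher and lower calls were 50 and 20 without scaling, against 95 and 20 in the main setting, for the antibody on POD1. They were 3188 and 444 without scaling, and 2025 and 1853 without acinar genes in scaling, against 2518 and 1443, on POD2. For the interaction they were 1143 and 128 without scaling, 302 and 368 with DESeq2 size factors, and 311 and 363 without acinar genes, against 549 and 328. For the day in isotype they were 584 and 6546 without scaling, against 1980 and 3079.

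No member value that changed sign was past the threshold in the main setting or in a setting where its sign changed. Some of them passed with a positive value once the cross-day pair was dropped and no libraries were summed. These were Dbp on POD2, Nr1d2 for the day in isotype and for the interaction, and Per2 for the day in anti-Gr1. Arntl on POD2 was -0.068, -0.10, -0.061, -0.050, -0.27, -0.56, -0.60 and -0.32 with DESeq2 size factors, without acinar genes, by DESeq2, with groups alone, with 12 libraries, without the cross-day pair (summed, labelled) and with the replicate block. Its interaction was -0.015 and -0.056 without the cross-day pair. Cry1 for the day in anti-Gr1 was -0.041, -0.096, -0.019, -0.047, -0.14, -0.31, -0.32 and -0.15 with DESeq2 size factors, without scaling, without acinar genes, by DESeq2, with 12 libraries, without the cross-day pair (summed, labelled) and with the replicate block. Nr1d1 on POD2 was 0.21 without scaling and 0.089 and 0.11 without the cross-day pair. Per2 for the day in isotype was 0.022, 0.048, 0.025, 0.053 and 0.032 without acinar genes, with 12 libraries, without the cross-day pair and with the block. Per3 was -0.15, -0.64, -0.65 and -0.018 on POD1 without scaling, without the cross-day pair and with the block, -0.027 on POD2 without acinar genes, and -0.043, -0.046 and -0.040 for the interaction with DESeq2 size factors, without acinar genes and by DESeq2. Tef on POD2 was -0.018 without acinar genes, and without scaling Tef and Nr1d2 for the day in isotype were -0.33 and -0.36. With a unit left out, POD2 ranges were -0.44 to 0.36 for Arntl, -0.46 to 0.98 for Dbp, -0.80 to 0.21 for Nr1d1, -0.45 to 0.53 for Nr1d2, -0.47 to 0.48 for Per3 and -0.32 to 0.42 for Tef, and Per3 on POD1 was -0.65 to 0.39. Interaction ranges were -0.034 to 0.76 for Arntl, -0.14 to 0.84 for Nr1d2, -0.17 to 0.85 for Per2 and -0.50 to 0.75 for Per3. Ranges for the day in anti-Gr1 were -0.59 to 0.20 for Arntl, -0.35 to 0.30 for Cry1, -0.13 to 1.31 for Dbp, -0.037 to 0.58 for Npas2, -0.13 to 0.11 for Per1 and -0.23 to 0.79 for Per2. Per2 for the day in isotype was -0.18 to 0.084. Npas2 rests on 11 to 169 reads per library and the other members on 35 reads or more. The part of depth in their spread was not tested.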

Other observations

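Over the 10 units of the fit, the genes outside the clock members most like Dbp in log2 CPM, out of 12070 ranked, included Cd79a of the B and plasma cell markers. Pearson's r to Dbp was 0.853 for Siglecg, 0.851 for Fcmr, 0.847 for Ccr7 and 0.841 for Cd79a, and among the clock genes the highest was 0.775, for Nr1d1. The units share library preparation and marker content, and the values are a description. For Arntl the closest genes outside the members were Lgalsl, Exo5, Gimap9, Wisp1 and Gpc1, with r from 0.773 to 0.839, and r to the member Npas2 was 0.843.

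Glucocorticoids and body temperature are known inputs of the clock, and lists of genes that respond to them were read as well. Of 9 glucocorticoid-responsive genes, 2 passed as higher in anti-Gr1 on POD2, the kinase gene Sgk1 at 1.40 ± 0.33 and the phosphatase gene Dusp1 at 1.30 ± 0.40, where 16.1% of all genes passed as higher, and none passed without the cross-day pair. For the day in isotype, 4 passed as lower on POD2, where 19.7% of all genes did. Sgk1 fell to 158, 152 and 170.1 CPM on POD2, against 470.3, 602 and 569 CPM on POD1, and Dusp1 to 334, 329.6 and 322 CPM, against 1254, 1416 and 1529 CPM. Tsc22d3, which encodes GILZ, and Klf9 had log2 fold changes of -1.72 ± 0.35 and -1.08 ± 0.34. Of 8 temperature-responsive genes, set against the same shares of all genes, the heat shock gene Hspa1b passed as higher in anti-Gr1 on POD2 at 2.64 ± 0.83, and Hspa1b, Hspa1a and Hsph1 passed as lower on POD2 in isotype, at -3.68 ± 0.83, -3.13 ± 0.71 and -1.02 ± 0.32. None of either list passed for the antibody on POD1 or for the day in anti-Gr1. When the cross-day pair was left out, Klf9 and Hsph1 no longer passed for the day in isotype, Hspa1b no longer passed on POD2, and the cold-inducible gene Rbm3 passed as higher in anti-Gr1 on POD1, at 1.01 ± 0.17 with adjusted p = 0.0238.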
